A study of Rattus norvegicus with 75 samples.

Results

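The genes described here are 31 rat genes of the endoplasmic reticulum (ER) protein folding machinery and of the unfolded protein response. They were taken by symbol from a table of 32754 genes, and all 31 were found there, each in 1 row. They comprise 11 ER chaperones and co-chaperones, 3 protein disulfide isomerases, 7 genes of ER-associated degradation, 6 stress sensors and transcription factors, and 4 targets of the transcription factor ATF4. Their messenger RNA was followed in 2 kidney tubule segments of rats fed with or without lithium.

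Proteins that enter the ER are folded there by chaperones such as Hspa5 (BiP), Hsp90b1 (GRP94) and the lectins Calr and Canx, and their disulfide bonds are set by isomerases of the Pdia family. When unfolded protein builds up, the membrane sensors Ern1 (IRE1), Eif2ak3 (PERK) and Atf6 start the unfolded protein response: IRE1 splices the Xbp1 message, PERK slows translation and favours that of Atf4, and cleaved ATF6 moves to the nucleus. XBP1 and ATF6 raise chaperone and degradation genes, while ATF4 raises genes of amino acid supply and of the later stress response, such as Asns, Trib3, Chac1, Ddit3 (CHOP) and Ppp1r15a (GADD34). Collecting duct and thick limb cells make large amounts of membrane transporters in the ER, and splicing of Xbp1 cannot be seen in values summed per gene.

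The samples were segments dissected by hand from kidneys of male Sprague-Dawley rats of 120 to 160 g: the cortical collecting duct (CCD), made of principal and intercalated cells, and the cortical thick ascending limb (cTAL). Control rats had plain food and treated rats had food with lithium chloride at 40 mM per kg. CCD was sampled after 12 h (3 control libraries, 2 with lithium), after 24 h and 36 h (3 of each arm at either time) and after 72 h (17 control, 19 lithium). From cTAL there were 12 control and 10 lithium libraries, all of 72 h, so the 75 libraries form 10 groups. If feeding began at the same time of day in all groups, 12 and 36 h fall at the opposite clock phase to 24 and 72 h. Time on the diet and time of day could then not be told apart when 12 or 36 h is compared with 24 or 72 h. The study looked for early signals of nephrogenic diabetes insipidus, a loss of urine concentration that lithium can cause. The labels name no genetic change. They tie no library to a particular rat, and a p-value here therefore measures the spread of libraries alone, part of which may be technical.

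The values are TPM, transcript abundances that the authors had already scaled to transcript length and library total. Levels of different genes can therefore be compared, the depth is unknown, and between 10888 and 12411 genes had at least 1 TPM in a library. Markers matched the labelled segment: 6 thick limb markers summed to between 49911 and 88247 TPM in cTAL libraries and to between 511 and 2022 TPM in CCD libraries. In 11 libraries of 3 of the 72 h groups, at least 20 small RNA genes were listed above 0, against at most 16 in the other libraries, and results at 72 h were also computed without those 11. In bulk tissue, fewer cells of a type and less RNA per cell cannot be told apart.

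Libraries of a group were not independent of each other. For 12 genes outside the list that were either high or low in a library, such as Pfdn6 and Slc39a1, libraries of a group shared much the same pattern in blocks of consecutive numbers. They were the best separated of the genes that split within each group at 72 h. Their gaps between high and low ran from 0.111 (Actl6a) to 1.01 (Pfdn6) on the log2 scale. Average-linkage clustering on these genes, cut at 1 chosen height, put each early group in 1 set and each group at 72 h in 4 sets. The sets had between 1 and 6 libraries, which did not always agree in all 12 genes, and their number depends on these choices. Every test was therefore also run on set means, as 4 sets against 4 at 72 h. At 12, 24 and 36 h, where a group is a single set, that test takes its spread from the sets at 72 h. Each early group had a pattern that no other early group shared, so at those times set and treatment cannot be told apart. A pattern was still not always particular to 1 treatment and time. Both lithium libraries of 12 h had the same state of all 12 genes as control CCD replicates 1 and 2 of 72 h, which are in the first control set. By mean log2 level of the 12 genes, the lithium group of 12 h lay at a distance of 0.757 from that set, the smallest between sets of different groups, and at 4.58 from the 12 h controls. The labels do not say what the matched libraries share, and whether it bears on their treatment or time was not tested. Results that hold these libraries were also computed without them, except at 12 h, where the lithium group is those 2 libraries.

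By mean level over all libraries, 15 members exceeded 100 TPM, 12 lay between 10 and 100 TPM, and 4 were below 10 TPM. The most abundant was the isomerase Pdia3 (520 TPM over all libraries, 250 to 825 in single libraries). Next came Hspa5 (506 TPM), Calr (403 TPM), Hsp90b1 (358 TPM) and the isomerase Pdia6 (335 TPM). The transcription factors Atf4 (275 TPM) and Xbp1 (263 TPM) were about as abundant as the chaperone Canx (243 TPM). The sensors were scarce, with Atf6 at 21.0 TPM, Eif2ak3 at 11.5 TPM and Ern1 at 6.86 TPM. Derl3, a degradation gene of secretory tissues, was listed at 0 in all 75 libraries. Chac1, a glutathione-degrading ATF4 target, reached 1 TPM in 20 libraries and Trib3, a pseudokinase that restrains ATF4, in 71. The remaining 28 members had at least 1 TPM in 74 or 75 libraries.

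The stretches before the gene starts show what several members share in sequence. Of the 31 genes, 25 had an entry in RefSeq's promoter table of assembly GRCr8, with 26 entries because Hyou1 had 2; Atf6, Derl1, Ern1, Manf, Pdia3 and Pdia6 had no entry. The ER stress response element is CCAAT followed by CCACG with any 9 bases between them, and on either strand it was found in 8 of these 26 stretches of 250 bases and in 22 of 33469 stretches in the table (0.0657%). Those 8 were before Calr, Canx, Creld2, Derl3, Dnajc3, Hsp90b1, Hspa5 and Xbp1. As the members were picked as known genes of this response, the motif shares given here describe them and are no test. Its shorter relative, ATTGG followed by CCACG with any 1 base between them, was before Herpud1 and Hyou1, and in 0.0418% of the table. The letters TGACGTG, which ATF6 and XBP1 can bind, were before Hspa5 and Hyou1 (1.54% of the table), and in Hyou1 they overlapped a match to that shorter element. The composite element TGATGNAA of ATF4 was before Chac1, Herpud1 and Trib3 (3.4% of the table). The next 8 stretches are shown because the results turn on these genes, with 6 that hold a match and 2, before Sdf2l1 and Ppp1r15a, that hold none. They run 5′ to 3′ along the gene's own strand, end at the base before the annotated start, and have matches to the 4 motifs in capitals.
Hspa5, chr3:38452766-38453015, plus strand: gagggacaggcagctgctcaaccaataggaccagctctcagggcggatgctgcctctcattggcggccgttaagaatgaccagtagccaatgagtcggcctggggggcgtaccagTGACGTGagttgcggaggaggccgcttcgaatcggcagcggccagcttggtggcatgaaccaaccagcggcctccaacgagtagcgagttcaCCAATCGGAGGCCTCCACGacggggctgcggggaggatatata
Hsp90b1, chr7:23012294-23012543, minus strand: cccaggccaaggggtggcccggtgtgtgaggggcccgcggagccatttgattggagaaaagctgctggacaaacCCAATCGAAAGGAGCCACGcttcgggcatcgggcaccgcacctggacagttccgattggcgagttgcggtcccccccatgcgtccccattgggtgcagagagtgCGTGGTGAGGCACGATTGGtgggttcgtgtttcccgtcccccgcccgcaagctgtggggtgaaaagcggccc
Calr, chr19:40213117-40213366, plus strand: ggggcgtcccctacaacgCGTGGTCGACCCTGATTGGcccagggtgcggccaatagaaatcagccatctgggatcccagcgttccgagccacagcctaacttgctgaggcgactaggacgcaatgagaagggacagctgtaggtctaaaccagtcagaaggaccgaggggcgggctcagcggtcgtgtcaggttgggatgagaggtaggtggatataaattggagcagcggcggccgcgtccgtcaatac
Creld2, chr7:121789134-121789383, plus strand: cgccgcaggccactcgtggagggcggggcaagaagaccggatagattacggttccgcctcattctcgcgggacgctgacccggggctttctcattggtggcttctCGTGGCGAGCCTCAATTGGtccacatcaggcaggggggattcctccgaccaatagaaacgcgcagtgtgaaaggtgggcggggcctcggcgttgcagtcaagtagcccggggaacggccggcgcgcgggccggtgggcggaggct
Xbp1, chr14:84604373-84604622, plus strand: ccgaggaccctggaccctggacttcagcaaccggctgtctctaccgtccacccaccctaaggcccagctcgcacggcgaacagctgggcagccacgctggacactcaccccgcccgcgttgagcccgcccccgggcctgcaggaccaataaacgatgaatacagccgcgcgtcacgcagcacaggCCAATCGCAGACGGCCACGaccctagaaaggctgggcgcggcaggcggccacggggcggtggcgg
Herpud1, chr19:10614708-10614957, minus strand: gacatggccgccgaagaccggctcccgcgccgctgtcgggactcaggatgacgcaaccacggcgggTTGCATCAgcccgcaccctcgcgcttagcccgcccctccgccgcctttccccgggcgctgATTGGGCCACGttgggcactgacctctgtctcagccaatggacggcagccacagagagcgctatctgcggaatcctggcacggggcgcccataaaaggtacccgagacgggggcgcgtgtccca
Sdf2l1, chr11:97376628-97376877, plus strand: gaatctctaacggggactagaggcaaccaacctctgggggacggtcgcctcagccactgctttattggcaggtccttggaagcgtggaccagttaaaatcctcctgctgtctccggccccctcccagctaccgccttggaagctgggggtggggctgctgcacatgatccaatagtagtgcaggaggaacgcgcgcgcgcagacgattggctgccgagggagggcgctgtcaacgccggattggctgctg
Ppp1r15a, chr1:105139597-105139846, minus strand: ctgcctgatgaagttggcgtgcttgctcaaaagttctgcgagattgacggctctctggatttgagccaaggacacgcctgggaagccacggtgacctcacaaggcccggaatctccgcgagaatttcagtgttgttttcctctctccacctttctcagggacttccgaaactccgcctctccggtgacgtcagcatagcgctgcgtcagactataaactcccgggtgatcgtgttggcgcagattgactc
In Hspa5 the ER stress response element lay 43 to 25 bases before the start. Hsp90b1 held it on both strands, at 176 to 158 and at 72 to 54 bases before the start. In Calr (232 to 214 bases) and Creld2 (145 to 127 bases) it lay on the opposite strand. A match is a run of letters and no evidence of binding, and its absence says only that these letters are not in the stretch.

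At 12 h 5 of 11 chaperones were lower in lithium than in control CCD. Hspa5 measured 853, 796 and 857 TPM in the 3 control libraries and 400 and 406 TPM in the 2 lithium libraries. Its difference was -1.05 on the log2(TPM + 1) scale (SE 0.10, adjusted p = 1.17e-05, limma with Benjamini-Hochberg adjustment over all genes tested). The groups did not overlap, and the lithium level was under that of every control library. Sdf2l1, a partner of Hspa5 that keeps unfolded protein soluble, measured 117, 118 and 103 TPM in controls and 69.9 and 45.8 TPM in lithium libraries (log2 -0.98, SE 0.15, adjusted p = 0.000599). Calr measured 685, 649 and 609 TPM in controls and 412 and 350 TPM in lithium libraries (log2 -0.77, SE 0.10, adjusted p = 0.000119). The groups were separate in both genes. Ddit3, the stress factor CHOP, measured 225, 218 and 184 TPM in controls and 118 and 137 TPM in lithium libraries (log2 -0.71, SE 0.13, adjusted p = 0.00153).

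The other called members at 12 h were abundant folding genes with smaller differences. Hsp90b1 measured 516, 463 and 525 TPM in controls and 359 and 339 TPM in lithium libraries (log2 -0.52, SE 0.11, adjusted p = 0.00695). Pdia3 measured 714, 686 and 825 TPM in controls and 547 and 582 TPM in lithium libraries (log2 -0.39, SE 0.09, adjusted p = 0.0103). Each lithium value lay below each control value in both genes. Dnajb11, a J-domain partner of Hspa5, measured 191, 192 and 198 TPM in controls and 150 and 148 TPM in lithium libraries (log2 -0.38, SE 0.10, adjusted p = 0.024). Pdia6 measured 446, 396 and 424 TPM in controls and 358 and 321 TPM in lithium libraries (log2 -0.31, SE 0.09, adjusted p = 0.0379). Creld2, a secreted ER stress protein with isomerase activity, was not called and lay the other way, at 99.8, 106 and 106 TPM in controls and 122 and 111 TPM in lithium libraries (log2 0.16, adjusted p = 0.33). In all, 8 of 30 members tested were lower and 0 higher: 5 of 11 chaperones, 2 of 3 isomerases and Ddit3. Over all genes tested 10.4% were called, 7.1% higher and 3.3% lower. Groups did not overlap in 16 members, 2 higher and 14 lower, and in 33.8% of all genes, 22.4% higher and 11.5% lower. The median difference was -0.21 for the members and 0.06 for all genes. Without either lithium library, Dnajb11 and another of these genes lost their call: Pdia3 without replicate 1, and Hsp90b1 and Pdia6 without replicate 2. Leaving out control replicate 1 or 3 ended the calls of Pdia6 and Dnajb11. Pdia6 was also lost without lithium replicate 3 of 24 h or lithium replicate 1 or 2 of 36 h, which share its estimate of spread. Between 6 and 9 members were called when any early library was left out. With library quality weights 4 were called, where 578 of 12998 genes were, and Hsp90b1, Pdia3, Pdia6 and Dnajb11 were not among them.

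The control libraries at 12 h were themselves high. The 14 chaperones and isomerases summed to 4392 ± 172 TPM there (SD, n = 3), to 3523 ± 405 TPM in controls at 24 h (SD, n = 3), to 3069 ± 27.1 TPM at 36 h (SD, n = 3) and to 3021 ± 634 TPM at 72 h (SD, n = 17). The lithium libraries at 12 h, at 3004 and 3038 TPM, lay below every control library of 24 h (3090 to 3893 TPM). They were just below those of 36 h (3041 to 3095 TPM) and within those of 72 h (2335 to 4151 TPM). The first control set of 72 h, which these libraries matched in the pattern genes, held between 2335 and 3048 TPM, and Hspa5 averaged 357 TPM there and 403 TPM in the lithium libraries of 12 h. In the test of controls over time, limma's moderated F test called 10 of 30 members, where 13.8% of all genes were called. Among them were Hspa5 (adjusted p = 0.0093), Calr (adjusted p = 3.68e-05), Pdia3, Dnajb11, Sdf2l1, Hyou1, a large Hsp70-like chaperone, and Dnajb9, an Hspa5 partner that restrains IRE1. The others were Herpud1, which helps to assemble the degradation complex, Atf4 and Ddit3 (adjusted p = 9.77e-05). Leaving out single libraries ended the calls of Hspa5 (without control replicate 3 of 12 h), Hyou1, Dnajb9 and Herpud1, and between 6 and 11 members were called. Without the first control set of 72 h 10 were called, with Creld2 in place of Hyou1, where 12.2% of all genes were. Against 72 h controls, those at 12 h were higher by a log2 of 0.96 for Hspa5, 0.74 for Calr and 0.91 for Ddit3. Kcnj1, a potassium channel of thick limb and principal cells, averaged 1706 TPM in controls and 737 TPM in lithium libraries at 12 h and made up most of the thick limb marker sum, while the thick limb gene Umod averaged 12.3 and 22.1 TPM. The 10 immune markers summed to between 176 and 372 TPM in controls and to 72.7 and 173 TPM in lithium libraries. Of 7 principal cell markers 1 was higher and 3 lower with lithium at 12 h, where 10.4% of all genes were called. They summed to between 17960 and 19874 TPM in controls and to 13657 and 15879 TPM in lithium libraries. Their part in the result was not tested. On set means, 0 of 30 members were called, both for lithium at 12 h, where 0.0231% of all genes were called, and for controls over time, where 0.113% were. At an unadjusted p under 0.05 these set tests held 4 and 6 members, and the share of all genes at that limit is not given. The adjusted p of Hspa5 at 12 h was then 0.757.

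At 24 h no chaperone was called lower, and 5 members were called. Ppp1r15a, the phosphatase subunit that ends the PERK signal, measured 217, 148 and 136 TPM in controls and 86.2, 95.5 and 82.1 TPM in lithium libraries (log2 -0.89, SE 0.17, adjusted p = 0.00102). Ddit3 measured 119, 119 and 98.9 TPM in controls and 88.0, 69.8 and 66.6 TPM in lithium libraries (log2 -0.59, SE 0.11, adjusted p = 0.00114). Both were lower in each lithium library than in any control. Xbp1 measured 276, 303 and 308 TPM in controls and 246, 227 and 236 TPM in lithium libraries (log2 -0.32, SE 0.06, adjusted p = 0.00103). Higher were Pdia4, an isomerase, at 140, 170 and 170 TPM in controls and 240, 228 and 229 TPM in lithium libraries (log2 0.54, SE 0.08, adjusted p = 6.51e-05). Creld2 measured 93.3, 104 and 115 TPM in controls and 140, 165 and 146 TPM in lithium libraries (log2 0.53, SE 0.09, adjusted p = 0.000276). The groups of these 3 genes were separate too.

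Thus 2 of 30 members were higher and 3 lower at 24 h, where 23.6% of all genes were called, 18.3% higher and 5.3% lower. Groups did not overlap in 5 members with lithium higher and 4 with lithium lower, and in 42.2% of all genes, 32.2% higher and 9.98% lower. Without control replicate 2 of 24 h, or without either or both lithium libraries of 12 h, 8 members were called. Without both, Pdia6 (log2 0.23), Atf4 (-0.26) and Eif2ak3 (0.51) joined the calls, where 26.5% of all genes were called. The members' median difference was 0.10 and that of all genes 0.13. Scaling by the median of ratios moved the median of all genes at 24 h from 0.13 to -0.01. With it 2 members were higher and 6 lower, where 3017 of 12998 genes were called. On set means 1 member was called, Ppp1r15a (adjusted p = 0.0404), where 2.32% of all genes were called. The sum of 5 plasma cell markers, which is mostly Sdc1, was between 1.07 and 1.73 TPM in controls and between 9.92 and 13.4 TPM in lithium libraries, with Jchain, Mzb1 and Irf4 near 0 in both, and its part was not tested. Of 7 proximal tubule markers tested 3 were lower with lithium at 24 h (median log2 -1.46), and the 8 markers of that list summed to between 164 and 607 TPM in controls and to between 48.5 and 93.9 TPM in lithium libraries. Of 7 principal cell markers 1 was higher and 3 lower at 24 h, and of 6 intercalated cell markers 0 were higher and 2 lower. The part of these markers was not tested either. Hspa5 measured 473, 598 and 542 TPM in controls and 615, 564 and 583 TPM in lithium libraries, with overlapping groups (log2 0.13, SE 0.09, adjusted p = 0.333).

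At 36 h Ddit3 was the member that differed most, and now it was higher. It measured 127, 112 and 113 TPM in controls and 241, 232 and 252 TPM in lithium libraries (log2 1.04, SE 0.11, adjusted p = 2.51e-06). The lithium group lay at 2.05 times the control group on the TPM + 1 scale, and the lowest lithium library was above the highest control. Creld2 measured 84.7, 75.8 and 77.6 TPM in controls and 131, 141 and 131 TPM in lithium libraries (log2 0.75, SE 0.09, adjusted p = 4.08e-06). Manf, a secreted protein that binds Hspa5 in the ER, measured 78.3, 65.4 and 76.3 TPM in controls and 106, 104 and 113 TPM in lithium libraries (log2 0.55, SE 0.10, adjusted p = 0.000378). Both were higher in every lithium library. Smaller rises were called in Dnajb11 (138 ± 1.32 TPM in controls and 183 ± 7.43 TPM in lithium libraries, SD, n = 3 each, log2 0.40, adjusted p = 0.00285), Pdia4 (log2 0.36, adjusted p = 0.00174) and Dnajc3, an Hspa5 partner that also restrains PERK (log2 0.23, adjusted p = 0.0145).

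Against these, Calr and Sdf2l1 were lower at 36 h. Calr measured 476, 436 and 471 TPM in controls and 300, 306 and 320 TPM in lithium libraries (log2 -0.58, SE 0.09, adjusted p = 0.000123). Sdf2l1 measured 71.8, 74.5 and 88.8 TPM in controls and 44.3, 51.8 and 51.7 TPM in lithium libraries (log2 -0.66, SE 0.14, adjusted p = 0.00171). The groups did not overlap in either gene, so 2 chaperones were lower while 4 were higher. Hspa5 was at 409, 425 and 330 TPM in controls and 394, 380 and 412 TPM in lithium libraries, with overlapping groups (log2 0.03, adjusted p = 0.818). Of 30 members 6 were higher and 2 lower, where 32.2% of all genes were called, 23.7% higher and 8.5% lower. Groups did not overlap in 8 members with lithium higher and 6 with lithium lower, and in 46.9% of all genes, 32.9% higher and 14% lower. Median-of-ratios scaling moved the median of all genes from 0.13 to 0.00. This scaling gave 3 members higher and 7 lower, where 4152 of 12998 genes were called. With it Pdia4, Dnajb11 and Dnajc3 were not called. Dnajc3 also lost its call without lithium replicate 2. On set means 1 member was called, Ddit3 (adjusted p = 0.0196), where 5.19% of all genes were. Kcnj1 averaged 1577 TPM in controls and 683 TPM in lithium libraries at 36 h, Umod 61.2 and 28.5 TPM, and 7 principal cell markers summed to between 17536 and 21319 TPM and to between 8854 and 9719 TPM. Their part was not tested.

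**Figure D1:**
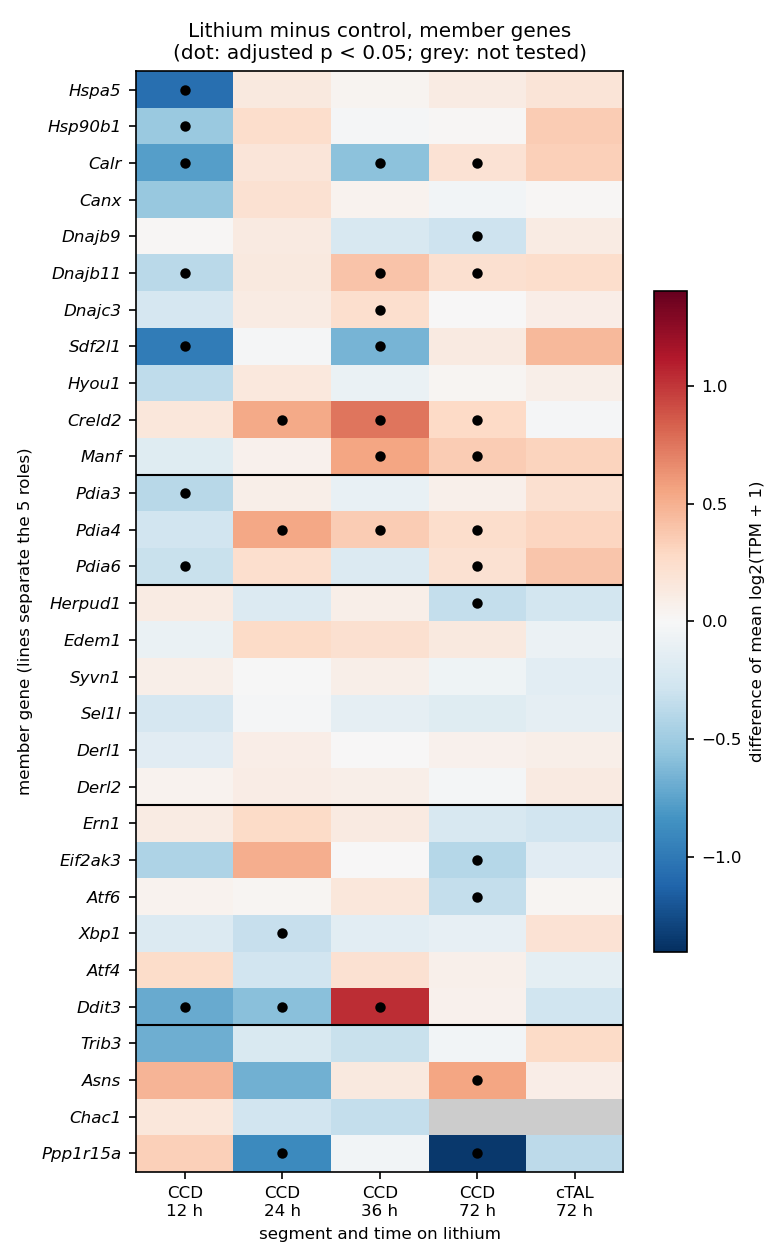
Lithium minus control for 30 member genes in rows (Derl3, listed at 0, is left out) and 5 comparisons in columns. Colour gives the difference of mean log2(TPM + 1), black dots mark adjusted p under 0.05, grey cells were not tested, and lines separate the 5 roles. The first column is blue through most chaperones with 8 dots, Ddit3 turns from blue to red at 36 h, and the cTAL column has no dot.

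At 72 h, with 17 control and 19 lithium libraries, Ppp1r15a stood apart from all other members. Its lowest, median and highest levels were 99.1, 144 and 222 TPM in controls and 36.1, 55.1 and 87.7 TPM in lithium libraries. The highest lithium library was below the lowest control (log2 -1.35, SE 0.10, adjusted p = 2.32e-14), and the set means were as separate, at 135 to 160 TPM in controls and 53.4 to 69.5 TPM in lithium sets (adjusted p = 2.9e-05). It was the only member of 29 tested whose groups did not overlap, where 2.02% of all genes had such groups, 1.71% with lithium higher and 0.309% with lithium lower. Immediate early genes, transcription factors and phosphatases that cells switch on within minutes of a stimulus, were lower in the same libraries. Of these, 9 of 9 tested were called lower, with a median log2 of -1.71. Of all genes 37.3% were called, 15.2% lower. That list was added after values were seen. Fos, the AP-1 subunit, had a median of 1707 TPM in controls and 358 TPM in lithium libraries. At 12 h, where Ppp1r15a was not called, 2 of 10 were higher and 0 lower, beside 7.1% and 3.3% of all genes. At 24 h 7 of 10 were lower and 0 higher, beside 5.3% and 18.3% of all genes. At 36 h, where Ppp1r15a was not called, 2 were higher and 5 lower, beside 23.7% and 8.5% of all genes. In the cTAL 0 of 8 were called, beside 0.701% of all genes. Their part in the Ppp1r15a result was not tested.

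The other 11 called members at 72 h differed by less and overlapped between groups. Asns, which makes asparagine, was low, with lowest, median and highest levels of 0.95, 3.23 and 6.32 TPM in controls and 2.42, 4.95 and 6.98 TPM in lithium libraries (log2 0.56, SE 0.14, adjusted p = 0.0016). Manf ran from 70.7 through 86.5 to 130 TPM in controls and from 91.6 through 121 to 163 TPM in lithium libraries (log2 0.36, SE 0.08, adjusted p = 0.000418). Creld2 ran from 74.3 through 97.8 to 117 TPM in controls and from 97.1 through 122 to 168 TPM in lithium libraries (log2 0.28, SE 0.06, adjusted p = 0.000271). Lithium libraries were high in these 3 genes, with control and lithium ranges sharing a broad middle. Pdia4, Dnajb11, Pdia6 and Calr were higher by a log2 of 0.25, 0.22, 0.21 and 0.21.

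The members that were lower at 72 h included 2 of the 3 membrane sensors. Eif2ak3 ran from 5.85 through 11.6 to 20.04 TPM in controls and from 4.12 through 9.63 to 14.6 TPM in lithium libraries (log2 -0.40, SE 0.14, adjusted p = 0.0253). Atf6 ran from 12.3 through 23.3 to 31.1 TPM in controls and from 8.67 through 19.8 to 29.5 TPM in lithium libraries (log2 -0.33, SE 0.12, adjusted p = 0.0291). Their lithium ranges reached lower, and most libraries overlapped. Herpud1 ran from 153 through 203 to 267 TPM in controls and from 125 through 159 to 231 TPM in lithium libraries (log2 -0.33, SE 0.07, adjusted p = 0.000488). Dnajb9 ran from 42.6 through 63.4 to 80.7 TPM in controls and from 31.6 through 50.1 to 66.6 TPM in lithium libraries (log2 -0.29, SE 0.08, adjusted p = 0.00244).

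In all 7 of 29 members were higher and 5 lower, where 37.3% of all genes were called, 22% higher and 15.2% lower. The members' median difference was 0.03 and that of all genes -0.00. Hspa5 and Hsp90b1 were not called: Hspa5 had a median of 379 TPM in controls and 437 TPM in lithium libraries (log2 0.11, 95% interval -0.16 to 0.39, adjusted p = 0.54), and Hsp90b1 334 and 341 TPM (log2 0.02, SE 0.10). On set means 1 of 29 members was called, Ppp1r15a, where 15.1% of all genes were. The set means of Creld2 (91.1 to 108 TPM in controls and 111 to 141 TPM in lithium) and of Dnajb9 (55.8 to 67.9 and 49.2 to 54.8 TPM) did not overlap either, with adjusted p of 0.0629 and 0.0586. Without the small RNA-rich libraries 11 members were called, where 4552 of 11604 genes were, and Pdia4 was not among them (log2 0.19). Without the first control set 12 were called, where 38.9% of all genes were; Pdia4 (log2 0.17) was lost and Xbp1 (log2 -0.14) gained. All 7 principal cell, 6 intercalated cell and 6 endothelial markers tested were lower with lithium. The principal cell sum had a median of 14657 TPM in controls and 10336 TPM in lithium libraries, and the part of these shifts was not tested.

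**Figure D2:**
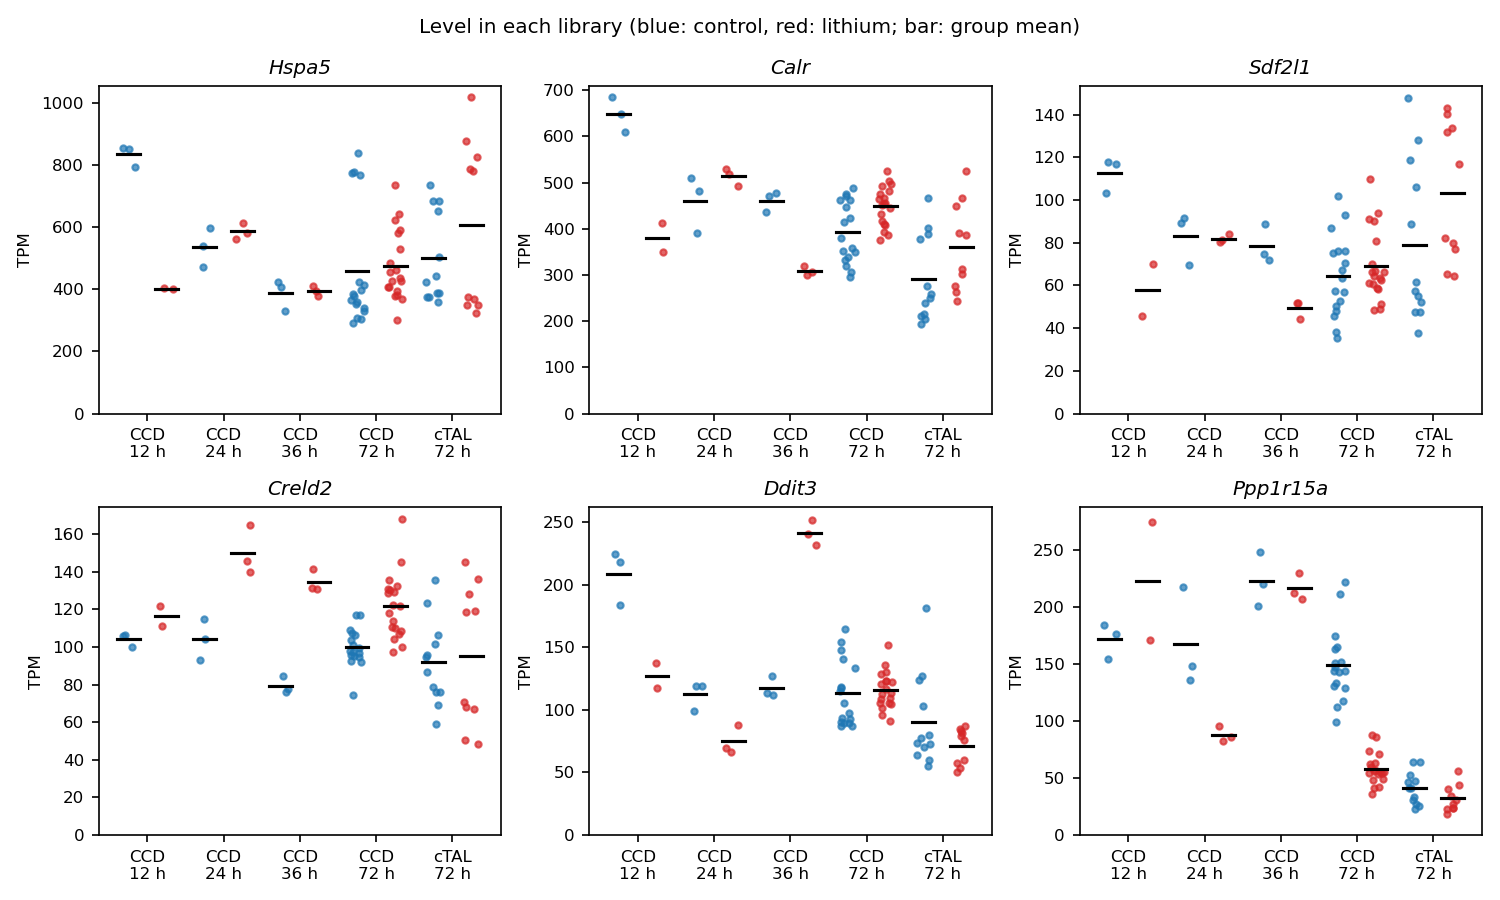
TPM of 6 members in each library, by segment and time on the horizontal axis. Blue points are control and red points lithium libraries, and black bars are group means. In CCD, Hspa5 at 12 h falls from 835 to 403 TPM on average, and Creld2 lies higher with lithium from 24 h. Ddit3 in CCD reaches 242 TPM at 36 h with lithium. Ppp1r15a in CCD separates at 72 h with 36.1 to 87.7 TPM under 99.1 to 222 TPM.

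The lithium effect of 5 members differed between times. As given above, 12 and 36 h may fall at another time of day than 24 and 72 h, and the part of this was not tested. Limma's moderated F test of the lithium effect over time called Ppp1r15a (adjusted p = 4.57e-06), Ddit3 (adjusted p = 8.97e-06), Calr (adjusted p = 1.31e-05), Dnajb11 (adjusted p = 0.0281) and Sdf2l1 (adjusted p = 0.0284), 5 of 30 members where 8.43% of all genes were called. Ddit3 went from a log2 of -0.71 at 12 h and -0.59 at 24 h to 1.04 at 36 h and 0.06 at 72 h. Calr went from -0.77 at 12 h through 0.17 at 24 h to -0.58 at 36 h and 0.21 at 72 h. Ppp1r15a was at 0.34, -0.89, -0.04 and -1.35. Creld2 had positive differences at all 4 times (0.16, 0.53, 0.75 and 0.28), called at 24, 36 and 72 h, and its difference over time was not called (adjusted p = 0.0591), while it was called without the small RNA-rich libraries (0.0086) or without the first control set of 72 h (0.0226), with the replicate number as a block and with library quality weights. On set means Ppp1r15a alone was called (adjusted p = 0.0374), where 0.121% of all genes were. The calls of Dnajb11 and Sdf2l1 ended without control replicate 1 or 2 or lithium replicate 2 at 12 h. Dnajb11 also lost its call without control replicate 3 or lithium replicate 1 at 12 h, and Sdf2l1 without control replicate 3 or lithium replicate 1 at 36 h. Without both lithium libraries of 12 h, leaving 24, 36 and 72 h, Ppp1r15a, Ddit3 and Calr were called, where 6.68% of all genes were.

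Within control CCD at 72 h, the set means of 12 of the 14 chaperones and isomerases ranged over more than their lithium difference. Creld2 and Dnajb9 were the exceptions, and the share of all genes is not given. Hspa5 averaged 357, 339, 790 and 373 TPM in the 4 control sets of CCD and 388, 413, 615 and 547 TPM in the lithium sets. In Hspa5 the third control set, libraries 9 to 12, lay near the 12 h controls. Summed over the 14 chaperones and isomerases, the libraries of that set held between 3939 and 4151 TPM. That is below the 4219 to 4562 TPM of the 12 h controls. The other control libraries of 72 h held between 2335 and 3048 TPM. The lithium sets averaged 2967, 2931, 3762 and 3575 TPM. Of the 14 genes, 12 were highest in the third control set and 11 in the third lithium set, with the other 3 in the fourth.

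Sets with like patterns were found in the cTAL. By the 12 pattern genes, each of the 8 CCD sets at 72 h was, among the 4 cTAL sets of its treatment, closest to that of the same number, at distances from 1.53 to 3.19. Some sets lay closer to 1 of the other treatment: the first lithium set of CCD to the third control set of CCD (1.66, against 2.25 to its cTAL set), and the first lithium set of cTAL to the third control set of cTAL (1.94). The fourth control set of cTAL lay at 1.53 from its CCD set and at 1.72 from the fourth lithium set of cTAL. The first control set of CCD had the longest distance to its cTAL set (3.19) and matched the lithium libraries of 12 h, as given above. In the cTAL the sum of the 14 genes averaged 3446, 2123, 3805 and 2261 TPM in control sets and 2481, 2247, 3957 and 4073 TPM in lithium sets. The third set was thus high in both segments and both treatments, the fourth high with lithium and low without it in both segments, and the second the lowest in all 4 groups. The first differed: the lone cTAL library of the first control set was high, and the 4 CCD libraries of that set were not. Hspa5 was likewise highest in the third set of each treatment in the cTAL. It averaged 652, 411, 702 and 403 TPM in control sets, with the fourth the lowest, and 362, 348, 950 and 799 TPM in lithium sets. The fourth set was small RNA-rich in lithium CCD and in both cTAL groups, but not in control CCD, and the part of this was not tested. What else the libraries of a set share is not given in the labels, and these values are a description without a test.

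**Figure D3:**
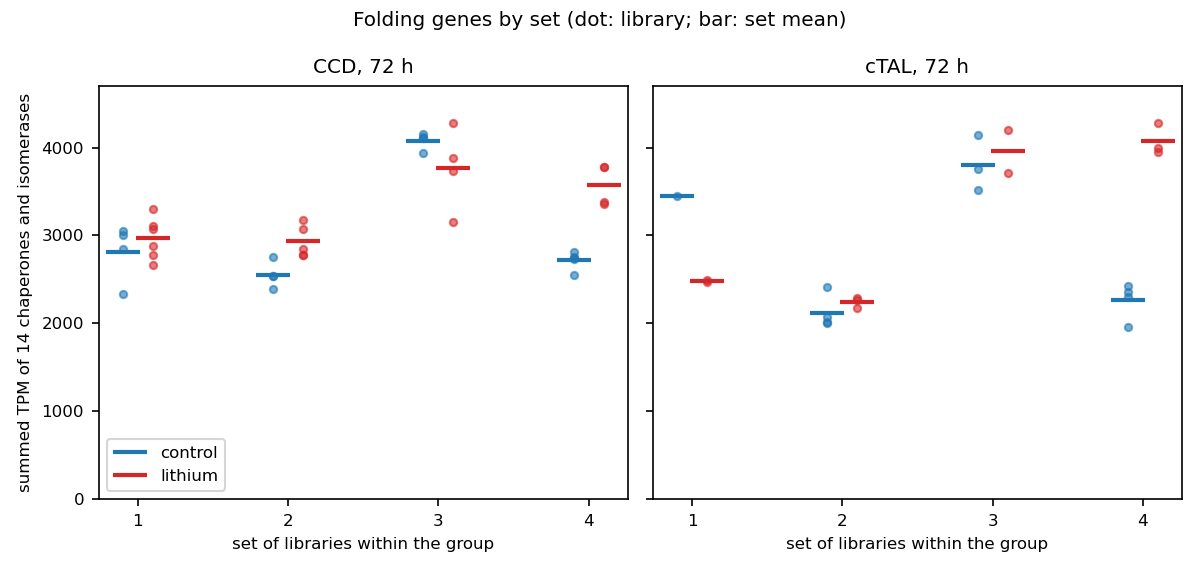
Summed TPM of 11 chaperones and 3 isomerases at 72 h by set of libraries (1 to 4) in CCD on the left and cTAL on the right. Dots are libraries, bars are set means, blue is control and red lithium. Sets are numbered by library order within each group, and the same number in control and lithium need not mean the same pattern. The set numbered 3 is high in all 4 groups, at means from 3762 to 4077 TPM. The set numbered 4 is high in the lithium groups (3575 and 4073 TPM) and low in the control groups (2720 and 2261 TPM).

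The lithium differences can be read against these set means. Among control CCD sets at 72 h the log2 range of the means was 1.22 for Hspa5, 0.91 for Sdf2l1, 0.49 for Calr and 0.41 for Ddit3. Of the 8 members called at 12 h, 3 had a difference larger than the range of the control sets: Calr, Sdf2l1 and Ddit3. At 24 h they were Creld2, Ddit3 and Ppp1r15a (3 of 5), at 36 h Calr, Creld2 and Ddit3 (3 of 8), and at 72 h Dnajb9, Creld2 and Ppp1r15a (3 of 12). The 12 h difference of Hspa5 was smaller than the distance between its control sets at 72 h. The share of all genes above their range is not given, so these counts show nothing particular to the members. A range runs from the lowest to the highest set mean at 72 h, while a difference is between group means, in part of other times.

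In the cTAL at 72 h, limma called 0 of 29 members, where 0.701% of all genes were called, 0.111% higher and 0.59% lower. At an unadjusted p under 0.05 there were 3 members, Pdia6, Manf and Xbp1, all higher with lithium, and on set means 0. The share of all genes at that limit is not given. Pdia6 had lowest, median and highest levels of 177, 216 and 426 TPM in controls and 268, 326 and 433 TPM in lithium libraries (log2 0.39, SE 0.16, adjusted p = 0.283). Ppp1r15a ran from 22.7 through 41.2 to 64.3 TPM in controls and from 18.6 through 29.2 to 55.9 TPM in lithium libraries (log2 -0.36, SE 0.19, adjusted p = 0.446). The groups overlapped in every member, and in all but 0.0171% of all genes. The interval for Hspa5 reached from -0.25 to 0.62, so that a change of up to 0.62 on the log2 scale is within it. Xbp1 was called under median-of-ratios scaling alone (log2 0.29, adjusted p = 0.0379; 0.20 and 0.264 without it).

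The lithium effects of the segments differed for 3 members in the interaction term of limma's joint fit, all more negative in the CCD: Ppp1r15a by a log2 of -0.99 (SE 0.20, adjusted p = 0.000189), Dnajb9 by -0.40 (SE 0.13, adjusted p = 0.028) and Xbp1 by -0.31 (SE 0.08, adjusted p = 0.00637). Dnajb9 was at -0.29 in CCD and 0.12 in cTAL, and Xbp1 at -0.11 and 0.20. Of all genes 15.3% were called, 11.8% higher and 3.44% lower. Without the small RNA-rich libraries Dnajb9 (-0.30) and Xbp1 (-0.23) were not called, and Creld2 was (0.64, higher in CCD). On set means 0 of 30 members were called, where 3.71% of all genes were, and the adjusted p of Ppp1r15a was 0.141. In that test 1 member had an unadjusted p under 0.05, and the share of all genes at that limit is not given. With the same-numbered sets of the segments paired, 0 members were called, where 4.2% of all genes were, and the adjusted p was 0.0801 for Ppp1r15a, 0.352 for Dnajb9 and 0.447 for Xbp1.

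Control libraries of the 2 segments differed most in genes outside the chaperones. Asns measured 0.95, 3.23 and 6.32 TPM (lowest, median and highest) in CCD and 22.0, 29.8 and 37.7 TPM in cTAL (log2 -2.96, SE 0.14, adjusted p = 1.2e-27). Herpud1 measured 153, 203 and 267 TPM in CCD and 294, 662 and 833 TPM in cTAL (log2 -1.49, SE 0.15, adjusted p = 4.76e-13). In neither gene did the segments overlap, and both were higher in cTAL. Ppp1r15a measured 99.1, 144 and 222 TPM in CCD and 22.7, 41.2 and 64.3 TPM in cTAL (log2 1.87, SE 0.14, adjusted p = 2.62e-18). Trib3 measured 5.40, 8.09 and 17.6 TPM in CCD and 0, 2.65 and 4.74 TPM in cTAL (log2 1.61, SE 0.21, adjusted p = 9.52e-10). Derl2, part of the channel that returns misfolded protein to the cytosol, measured 59.5, 72.6 and 86.7 TPM in CCD and 30.2, 41.1 and 58.6 TPM in cTAL (log2 0.83, SE 0.07, adjusted p = 1.94e-17). Xbp1 measured 255, 305 and 381 TPM in CCD and 162, 191 and 231 TPM in cTAL (log2 0.70, SE 0.06, adjusted p = 2.15e-16). These 4 were higher in CCD with no overlap, as were 8.34% of all genes, and 5.34% were lower with none (13.7% together).

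Among chaperones and sensors the segments were closer. Dnajc3 was lower in CCD, with lowest, median and highest levels of 62.9, 74.3 and 105 TPM against 88.8, 110 and 202 TPM in cTAL (log2 -0.64, SE 0.10, adjusted p = 3.67e-07), and so was Canx (log2 -0.30, adjusted p = 0.043). Higher in CCD were Atf6 (log2 0.54), Pdia3 (0.53), Atf4 (0.49), Calr (0.48), Pdia4 (0.48), Hsp90b1 (0.41), Dnajb11 (0.39), Ddit3 (0.37), Syvn1, the ubiquitin ligase of ER degradation (0.32), Pdia6 (0.30) and Derl1 (0.26). Hspa5 was not called (median 379 TPM in CCD and 433 TPM in cTAL). In all 15 of 30 members were higher in CCD and 4 lower, where 67.2% of all genes were called, 46.9% higher and 20.3% lower. The members' median was 0.28 and that of all genes 0.25. Median-of-ratios scaling moved the latter to 0.01 and gave 5 members higher and 8 lower, with Derl1 at -0.02. Of all genes it called 7744 of 13083. Without the small RNA-rich libraries Hsp90b1, Canx, Pdia6 and Ddit3 were not called. On set means 8 were called, where 46.8% of all genes were: Asns, Herpud1 and Dnajc3 lower, and Ppp1r15a, Trib3, Derl2, Xbp1 and Atf4 higher in CCD. With the same-numbered sets paired 13 were called, where 52.3% of all genes were: the same 8, Canx lower, and Pdia3, Calr, Dnajb11 and Ddit3 higher. Pdia3 averaged 438, 443, 675 and 522 TPM in the CCD control sets and 398, 269, 511 and 346 TPM in the cTAL sets of the same number, and was higher in CCD in each (adjusted p = 0.00225 when paired). Without the first control set of CCD, 18 members were called (67.6% of all genes), and Canx was not. The 10 immune markers summed to between 2029 and 6123 TPM in control cTAL and to between 22.3 and 574 TPM in control CCD, with 10 of 10 called lower in CCD, and their part in these differences was not tested. Of 5 plasma cell markers, 1 passed the filter, and the sum reached at most 12.6 TPM in control cTAL.

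**Figure D4:**
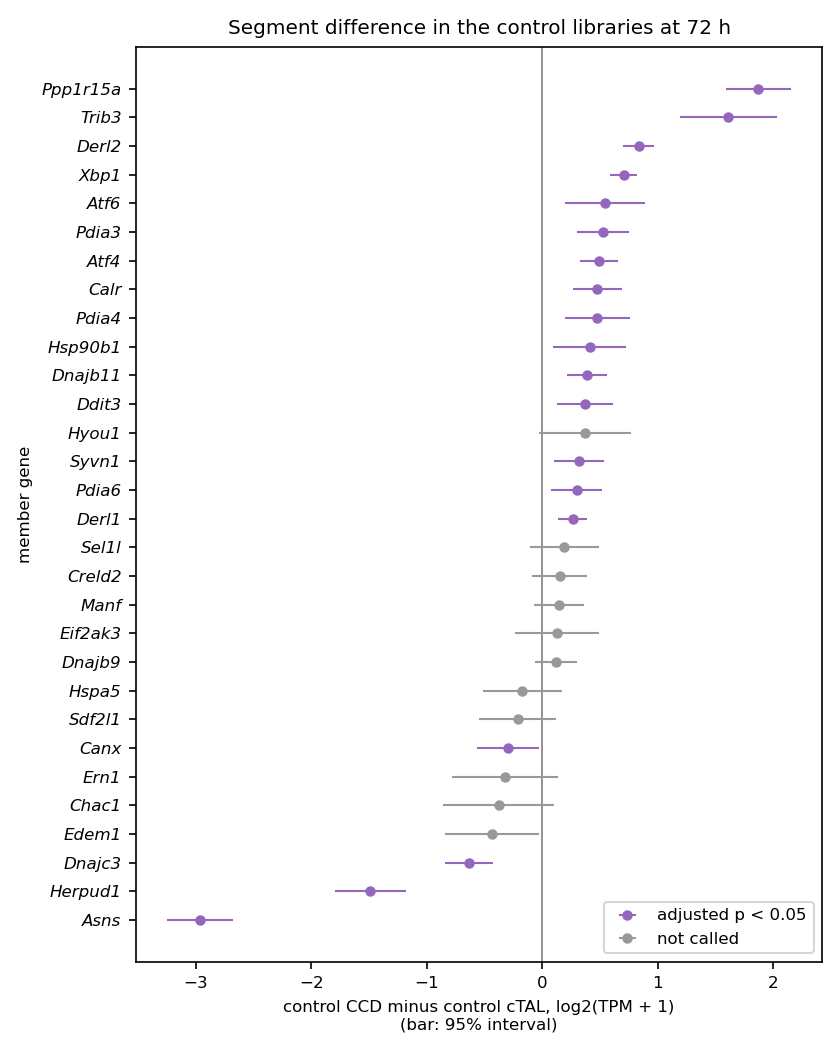
Control CCD minus control cTAL at 72 h for 30 members, ordered by the difference in log2(TPM + 1) on the horizontal axis. Points are limma estimates, bars 95% intervals, purple points have adjusted p under 0.05 and grey points do not. Asns (-2.96) and Herpud1 (-1.49) lie far to the left, and Ppp1r15a (1.87) and Trib3 (1.61) far to the right.

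Other genes of the same machinery were followed in 7 wider lists. The lists were written with earlier results of these data known, so their shares cannot test whether a list stands out. At 72 h in CCD, 9 of 21 genes of ER entry and signal cleavage were higher and 1 lower with lithium, with a median log2 of 0.17. That is 47.6% of them called, beside 37.3% of all genes, 22% higher and 15.2% lower. Ssr2, a subunit of the translocon-associated complex, ran from 313 through 372 to 491 TPM in controls and from 419 through 479 to 647 TPM in lithium libraries (log2 0.36, adjusted p = 2.65e-07, on set means 0.00731). Of 15 oxidative folding genes 6 were higher and 0 lower (40% called). Prdx4, the ER peroxiredoxin that passes oxidation to isomerases, ran from 125 through 141 to 165 TPM in controls and from 172 through 204 to 292 TPM in lithium libraries (log2 0.55, adjusted p = 4.47e-10, on set means 0.00218). Its groups did not overlap. Prdx4 was also called higher at 12 h (log2 0.35), 24 h (1.01) and 36 h (0.75), and its lithium effect was higher in CCD than in cTAL (0.72, adjusted p = 1.04e-06).

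Of the ATF4 and amino acid list, 12 of 21 genes were higher and 3 lower in CCD at 72 h (71.4% called, beside 37.3% of all genes). Phgdh, which starts serine synthesis, ran from 35.8 through 45.8 to 55.2 TPM in controls and from 51.2 through 68.1 to 127 TPM in lithium libraries (log2 0.64, adjusted p = 4.23e-09). Ddit4, a stress-induced brake on mTORC1, ran from 13.0 through 32.3 to 67.1 TPM in controls and from 6.19 through 11.5 to 16.0 TPM in lithium libraries (log2 -1.35, adjusted p = 5.17e-09). On set means 8 of the 21 were called, where 15.1% of all genes were. As this list too was written with earlier results known, its shares describe the listed genes and are no test. At 36 h 12 of 22 were higher and 2 lower (63.6% called, beside 32.2% of all genes), and at 24 h 8 and 5 (59.1%, beside 23.6%). Psat1, the next enzyme of serine synthesis, measured 29.0 ± 1.13 TPM in controls and 76.2 ± 5.23 TPM in lithium libraries at 36 h (SD, n = 3 each, log2 1.36, adjusted p = 1.66e-05).

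In the remaining lists the shares called in CCD at 72 h lay on either side of the 37.3% of all genes. Among 12 genes of glycan quality control 3 were higher and 0 lower (25% called), and among 19 of ER-associated degradation 2 and 4 (31.6%). Among 15 of stress sensing and ATF6 processing 3 were higher and 4 lower (46.7%), and among 9 of ER calcium 1 and 1 (22.2%). Bax, the pore former of cell death that was put in the stress sensing list, had lowest, median and highest levels of 51.4, 85.5 and 98.9 TPM in controls and 132, 166 and 228 TPM in lithium libraries (log2 1.05, adjusted p = 3.78e-14). At 12 h each of the 7 lists had 1 or 2 called genes, where 10.4% of all genes were called. In cTAL, 0 genes of the 7 lists were called for lithium, where 0.701% of all genes were.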

How the data were processed

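Full-length cDNA from dissected segments was amplified in 15 cycles and sequenced, per the labels' protocols. The deposited values are TPM with 2 decimals for 32754 genes in 75 libraries; STAR 2.5.2b, RSEM 1.2.31 and Rnor_6.0 are named in the submitters' processing notes, and strand use is not given in the sources used here. Depth is unknown, so no counting error could be given. The 31 members, the wider lists and the library sets were chosen with earlier results of these data known.

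Tests were two-sided, on log2(TPM + 1), and used the trended variances of limma (version 3.58.1, run in R 4.3.3). Genes needed 1 TPM in as many libraries as the smallest group of the fit. Benjamini-Hochberg adjustment covered all genes tested, with calls at adjusted p under 0.05. The early times shared a fit of 6 CCD groups, the segments 1 of 4 groups, and the time tests 1 of 8. The fit was tested on simulated data with independent libraries, which cannot show how sets of like libraries affect the calls. Up to 8 called members with the largest differences per comparison are given by library, and up to 4 genes of smallest p per wider list were eligible to be named. Alternatives were a pseudocount of 0.1, no filter, median-of-ratios scaling, set means, quality weights, a replicate block and leaving out libraries; pairing the sets of the segments and leaving out sets were chosen after seeing the data. Promoters are RefSeq's, of GRCr8, another build than that of the values.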

Additional observations from a re-analysis of the deposited data

Results flagged for a closer look

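The lithium effect differed between the segments in limma's interaction term for Ppp1r15a (-0.9873 on the log2 scale), Dnajb9 (-0.4047) and Xbp1 (-0.3106), each more negative in CCD than in cTAL. The effect differed between the 4 times in CCD by limma's F test for Ppp1r15a (adjusted p = 4.57e-06), Ddit3 (adjusted p = 8.97e-06), Calr (adjusted p = 1.31e-05), Dnajb11 (adjusted p = 0.0281) and Sdf2l1 (adjusted p = 0.0284). On set means the time difference of Ppp1r15a was still called, and the other 7 results were not. With same-numbered sets of the segments paired, none of the 3 segment results was called. Without the 12 h lithium libraries, the time results of Dnajb11 and Sdf2l1 were not called.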

How the results depend on the processing

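On set means the counts of called members were 0 at 12 h (8 over libraries), 1 at 24 h (5), 1 at 36 h (8), 1 in CCD at 72 h (12), 0 for the segment difference of the lithium effect (3), 8 between control segments (19), 1 for the effect over time (5) and 0 for controls over time (10). Chosen after seeing the data, pairing same-numbered sets of the segments gave 0 for the segment difference of the lithium effect (4.2% of all genes) and 13 between control segments (52.3%). Leaving out both 12 h lithium libraries gave 8 at 24 h (26.5% of all genes), 8 at 36 h (35.4%) and 3 for the effect over time (6.68%). Leaving out the first control set of CCD at 72 h kept all 5 counts that hold it within 1.5 times. Median-of-ratios scaling gave 8 at 24 h (3017 of 12998 genes), 1 in cTAL (75 of 11702) and 8 for the effect over time (1207 of 14105). It also reversed Derl1 between control segments to -0.0165. Library quality weights gave 4 at 12 h (578 of 12998 genes), 9 at 24 h (4188 of 12998), 15 for the effect over time (4673 of 14105) and 22 for controls over time (6016 of 14105). Without weights 1352, 3074, 1189 and 1941 genes were called in those comparisons. Leaving out single libraries gave 6 to 9 members at 12 h, 5 to 8 at 24 h, 7 to 9 at 36 h, 3 to 6 for the effect over time and 6 to 11 for controls over time. The effect over time fell to 3 without control replicate 1 or 2 or lithium replicate 2 of 12 h, and controls over time to 6 without control replicate 3 of 12 h. With the replicate number as a block, counts were 8, 7, 8 and 12 for CCD at the 4 times, 0 in cTAL and 16 for controls over time. Over all genes that block gave 1148, 2980, 4103 and 4230 calls at those times, 1 in cTAL and 3668 for controls over time. Same-numbered libraries did not deviate together in every pair (lowest correlation -0.176), so the numbers were not taken to pair samples. For the count changes above the cause was not tested. Depth is unknown, so what it limits could not be given.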
